A study of Mus musculus with 16 samples.

Results

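The genes described here are 10 genes that canonical Wnt signaling is known to induce: Axin2, Sp5, Lef1, Tcf7, Apcdd1, Notum, Nkd1, Znrf3, Rnf43 and Tnfrsf19. They were taken by symbol from the gene list of the deposited count matrix and are 10 of the 41193 symbols with a count. Their unique molecular identifiers (UMIs, counts of captured RNA molecules) were followed through the authors' 17 clusters, with endothelial cells first, and then through time points and genotypes.

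In the canonical Wnt pathway, Wnt ligands bind Frizzled and Lrp5 or Lrp6 receptors, the complex that degrades beta-catenin is switched off, and beta-catenin enters the nucleus and acts with transcription factors of the TCF/LEF family. Many of the genes that this switches on are feedback inhibitors of the pathway itself, so their RNA is widely used as a readout of it. In the central nervous system the pathway is best known in endothelial cells, where it builds and maintains the blood-brain and blood-spinal cord barriers.

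The study asked how gene expression and signaling between cell types of the injured spinal cord depend on Ryk, a Wnt receptor, in astrocytes. Suspensions of cells were made by pronase digestion with actinomycin D and removal of dead cells from spinal cord tissue around the lesion core of 16 mice, with 1 library of 3′ RNA tags per mouse and 2 mice in each of 8 conditions. Mice were uninjured (the labels say Sham) or were taken 1 d, 7 d or 14 d after a cervical dorsal column lesion. In the labels the WT mice are Ryk+/+,GFAPcreERT2 and the conditional knockout (cKO) mice Rykfl/fl,GFAPcreERT2, so the controls carried the inducible Cre transgene too. All mice were 8-10 weeks old, and the methods give daily tamoxifen to induce the recombinase. Cre is driven by the human GFAP promoter, which is active in astrocytes, so the deletion was aimed at those cells and any difference in endothelial cells between genotypes concerns cells that the transgene does not target.

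Ryk itself, the targeted gene, was still counted in the cKO mice. In the 3 clusters labelled astrocytes together its level was 54.0, 107.8 and 157 CPM (lowest, median and highest of 7 WT mice). CPM are counts of the gene scaled to 1e6 UMIs of the summed cells. In 8 cKO mice the level was 23.0, 87.6 and 123 CPM. In the endothelial cluster it was 39.2, 59.5 and 73.9 CPM in WT and 39.6, 62.1 and 72.9 CPM in cKO mice. The genotypes overlapped in both cell types. By immunostaining, the paper found that astrocytes of the cKO mice had lost most of their Ryk protein signal. RNA tags summed over clusters are another measure, so the overlap does not speak to that loss. The lowest astrocyte value, in cKO 1 d replicate 1, rests on 1 UMI, and the paper does not say which exon is flanked by loxP sites, so where the 3′ tags lie relative to the deleted stretch is not stated.

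The libraries differ in ways that the groups do not explain. WT 1 d replicate 2 holds 1 cell and was left out, so WT 1 d is 1 mouse in every comparison and 15 mice remain. These had 208 to 1845 cells (median 1223) and 536263 to 9008729 UMIs, and the endothelial cluster had 46 to 418 cells and 130195 to 1663827 UMIs per mouse. The 4 shallowest libraries in that cluster, by the median UMIs per cell, are replicate 1 of WT 1 d, WT 7 d, cKO 1 d and cKO 7 d, with 376, 378, 381.5 and 408 UMIs. These 4 libraries also share cell barcodes most often. In all, 166 barcodes stand in more than 1 library, in 432 cells or 2.37% of all cells. Of these cells, 193 are endothelial. Among the barcodes, 28 stand in all 4 libraries and 40 in all of them but cKO 7 d replicate 1. Another 46 stand in WT 1 d replicate 1 and WT 7 d replicate 1 alone, and WT 1 d replicate 1 has 1025 cells. For 6 mice the condition in the deposited cell names differs from the condition in the sample titles. These are WT 1 d (named WT 14 d), WT 7 d (WT 1 d), WT 14 d (cKO 14 d), WT uninjured (cKO uninjured), cKO 14 d (cKO 7 d) and cKO uninjured (WT 7 d), replicate 2 in each case. The titles are used here. Batch and replicate carry the same number for each of the 16 mice. The mice carry animal numbers under 10000 (replicate 1 of the uninjured, 1 d and 7 d conditions) or over 10000 (the others), so that both 14 d genotypes have animals of the high series only.

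The endothelial label was checked against 9 marker genes. All 9 were higher in the endothelial cluster than in the other cells, with a summed level of 18281 against 816 CPM, and Flt1, a VEGF receptor, was the most abundant. Of the cluster's 4201 cells, the authors had moved 1155 out of their Cluster 2, and these differ between the animal series. In the low-numbered animals the moved cells had 757 to 1014 CPM of Lef1, and in the high-numbered animals 0 to 354 CPM. Their summed endothelial markers were 19931 to 21748 CPM in the low series and 312 to 3246 CPM in the high series. The moved cells of the high series therefore lack most of the RNA that marks the cluster, and they supply 22.6% of the cluster's UMIs in WT uninjured replicate 2, 18.5% in cKO uninjured replicate 2 and 13.2% in cKO 1 d replicate 2, against 2.82% to 4.55% in the 7 d and 14 d mice of that series. Doublets (droplets with more than 1 cell) were not called here.

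Across the 17 clusters, 8 of the 10 genes had their highest mean level in the endothelial cluster, all but Znrf3 and Rnf43. Of the 9 members with at least 200 UMIs in all cells, 7 were highest there, beside 988 of all 14613 genes with that many UMIs (6.76%). Of these 7, Notum reached 200 UMIs only through the endothelial cluster, which held 661 of its 789 UMIs. The members were chosen with earlier results of these data known, so setting the shares side by side is not a test. Clusters were formed from the same counts, so these levels are a description without a test, and a level is a mean over the mice with at least 10 cells in the cluster. Of all 10 genes, 8 were highest there in replicate 2 mice alone and 5 in replicate 1 mice alone. In those replicate 1 mice Notum was higher in Cluster 2 (60.3 CPM in 4 mice with 164 cells, beside 45.6 CPM in endothelial cells), and Apcdd1 and Tnfrsf19 were higher in the red blood cell cluster, which had 1 such mouse with 14 cells.

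**Figure D1:**
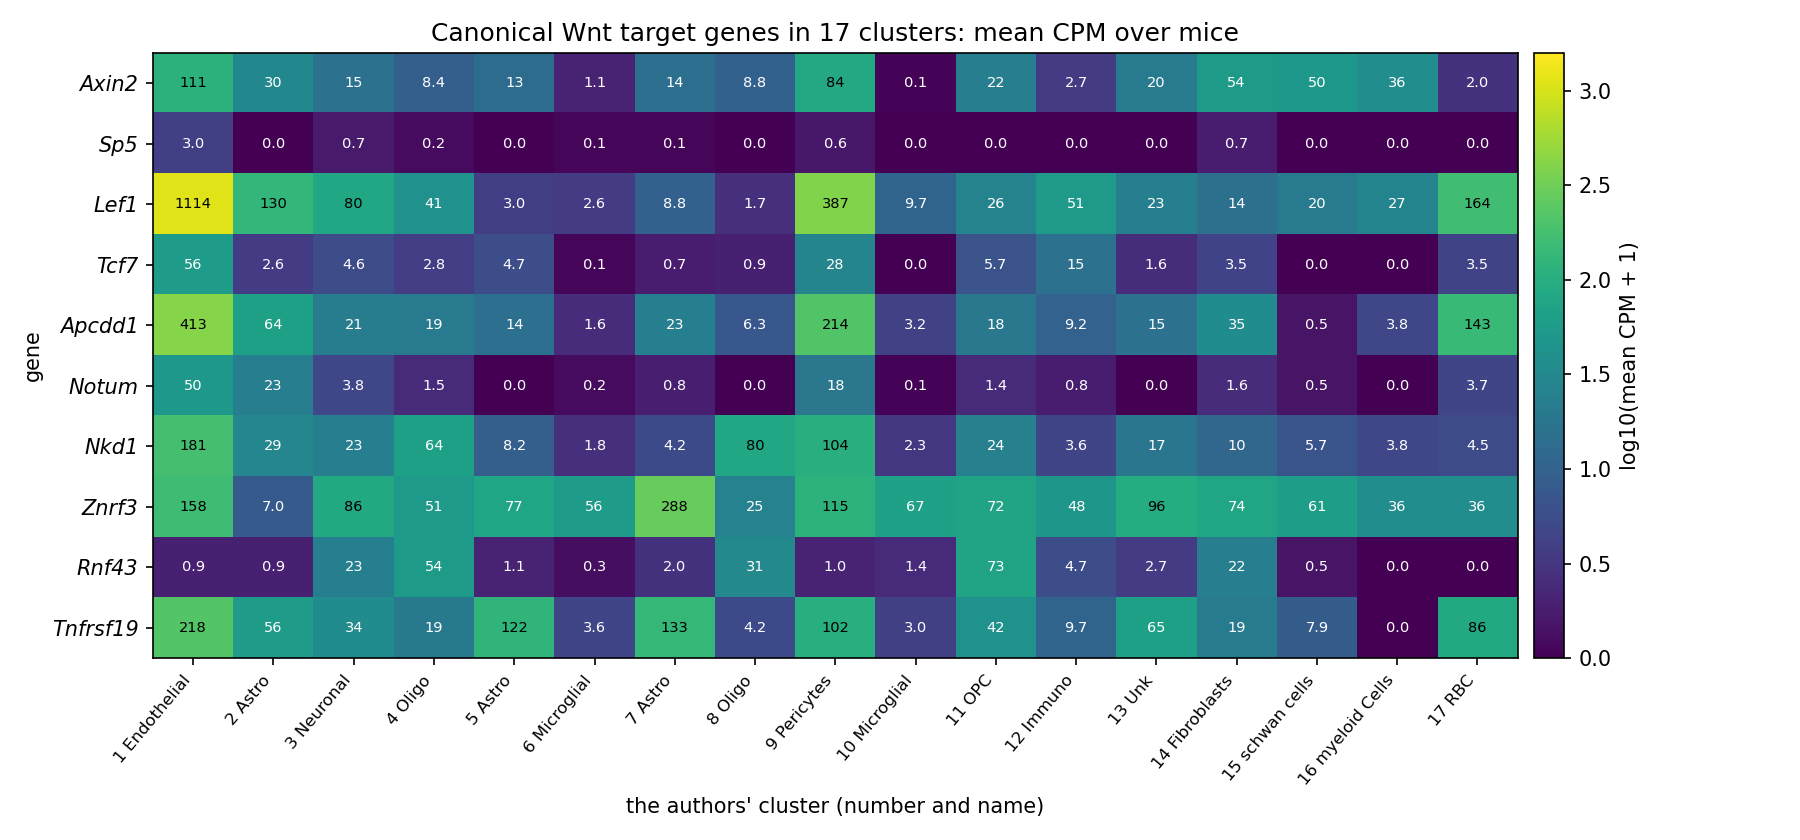
Mean CPM over mice (numbers, colour on a log10 scale) of the 10 genes in each of the authors' 17 clusters. The endothelial column holds the highest value for 8 genes, Znrf3 is highest in Cluster 7 (288 CPM) and Rnf43 in the oligodendrocyte precursors (72.5 CPM).

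Axin2, a scaffold of the beta-catenin destruction complex, is induced by the pathway that it restrains. Its level in the endothelial cluster was 28.8, 114 and 181 CPM (lowest, median and highest of 15 mice), with a mean of 111 ± 45.1 (SD), and in the pericyte cluster it was 0, 81.8 and 228 CPM with a mean of 83.8 ± 53.9. Axin2 was higher in endothelial cells than in pericytes of the same animal in 12 of 15 mice, and the means differed by less than their spread. Fibroblasts followed with 54.1 ± 84.3 CPM in 9 mice, while both microglial clusters had means of 1.11 and 0.0730 CPM. The first place of the endothelial cluster for Axin2 thus rests on a small difference.

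Sp5, a transcription factor that acts as a direct target and repressor of the pathway, was barely detected. It had 35 UMIs in 13 mice, 24 of them in endothelial cells, where the mean was 2.99 ± 2.84 CPM. This is too few for a comparison between conditions.

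Lef1 and Tcf7 are the transcription factors through which beta-catenin acts and are also its targets. Lef1 in endothelial cells was at 435, 1269 and 1719 CPM (lowest, median and highest of 15 mice; mean 1114 ± 361). The pericyte cluster followed with 147, 370.0 and 612 CPM (mean 387 ± 140.0). Every mouse had more Lef1 in endothelial cells than in pericytes, and the difference exceeded the spread over mice. Lef1 was next highest in the red blood cell cluster and in Cluster 2, with means of 164 and 130.2 CPM that rest on 11 and 18 UMIs, and then in neurons with 79.9 ± 44.3 CPM. Cluster 5 astrocytes, Cluster 6 microglia and Cluster 8 oligodendrocytes had 2.98, 2.55 and 1.72 CPM.

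Tcf7 had the same order at the top: 20.8, 57.6 and 79.2 CPM in endothelial cells (mean 56.1 ± 18.7) and 0, 32.2 and 48.2 CPM in pericytes (mean 27.8 ± 19.4), higher in endothelial cells in 14 of 15 mice. The immune cluster came next, at 0, 4.59 and 49.1 CPM in 10 mice. Tcf7 and Lef1 are also known in T cells, and within the immune cluster the 15 cells with a UMI of Cd3e, Cd3d or Cd3g, parts of the T cell receptor complex, had 310.3 CPM of Lef1 and 135 CPM of Tcf7. The other 273 cells had 77.0 CPM of Lef1 and 2.08 CPM of Tcf7, so 10 of the 12 Tcf7 UMIs of that cluster came from the 15 cells.

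Of the secreted and membrane-bound inhibitors, Apcdd1, which binds Wnt and Lrp5 at the cell surface, was at 197, 441 and 653 CPM in endothelial cells (mean 413 ± 124) and 80.3, 220.4 and 387 CPM in pericytes (mean 214 ± 82.6). It was higher in endothelial cells in 15 of 15 mice. Notum, an enzyme that inactivates Wnt proteins by removing their lipid, was at 14.4, 45.7 and 89.1 CPM in endothelial cells (mean 49.6 ± 21.4) and at 17.5 ± 18.1 CPM in pericytes. Cluster 2 had a Notum mean of 22.5 CPM from 4 UMIs. Endothelial cells had the higher Notum level in 14 of 15 mice, and their share of all Notum UMIs of an animal was 80.6% on average (n = 15). Apcdd1 and Notum were thus found mostly in vessels.

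Nkd1, an inhibitor that binds Dishevelled inside the cell, stood out by a level in oligodendrocytes. It was at 75.2, 182 and 244 CPM in endothelial cells (mean 181 ± 44.5), at 104 ± 40.4 CPM in pericytes, and at means of 80.0 and 64.1 CPM in the oligodendrocyte Clusters 8 and 4 (18.8 to 134 and 31.8 to 98.7 CPM). Endothelial cells exceeded pericytes in 15 of 15 mice, while the pericyte and oligodendrocyte means differed by less than their spread. In astrocyte Clusters 5 and 7 Nkd1 was at 8.22 and 4.21 CPM.

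Znrf3 and Rnf43 encode paired ubiquitin ligases that remove Frizzled receptors from the cell surface, and they had their highest levels in different cells. Znrf3 was highest in Cluster 7 astrocytes, at 159, 298 and 354 CPM (mean 288 ± 52.7), above endothelial cells at 55.9, 174 and 243 CPM (mean 158 ± 58.4) in 14 of 15 mice. It was the most widespread member, with means of 115 CPM in pericytes, 95.7 CPM in Cluster 13 (labelled unknown, with all 5 ependymal markers above the other cells), 86.3 CPM in neurons and 48.4 to 76.5 CPM in Cluster 5 astrocytes, microglia, precursors and immune cells. Among the other clusters labelled astrocytes, Cluster 5 had a Znrf3 mean of 76.5 ± 80.3 CPM with a median of 32.2 CPM. Cluster 2 had a mean of 7.04 CPM, and the gap between these means was below the SD of Cluster 5. The astrocyte markers of Cluster 2 summed to 7838 CPM, with 5 of 7 above the other cells. Its oligodendrocyte markers summed to 21203 CPM, with 2 of 6 above the other cells, as were 4 of 6 neuron markers.

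Rnf43 was almost absent from endothelial cells, with 11 UMIs and a mean of 0.929 CPM. Its highest means were in the oligodendrocyte lineage: 0, 77.8 and 108 CPM in the precursors (OPC; mean 72.5 ± 28.3 in 14 mice), 54.0 ± 30.1 CPM in Cluster 4 and 31.1 ± 24.3 CPM in Cluster 8. Neurons followed with 22.8 ± 21.2 CPM (175 UMIs) and fibroblasts with 22.4 ± 43.3 CPM (22 UMIs). Neighbours in this order differed by less than their spread over mice. Endothelial cells exceeded the precursors in 0 of 14 mice.

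Tnfrsf19, a member of the TNF receptor family that is also known as Troy, was shared by vessels and astrocytes. It was at 109, 253 and 294 CPM in endothelial cells (mean 218 ± 68.0), 133 ± 40.0 CPM in astrocytes of Cluster 7, 122 ± 97.7 CPM in those of Cluster 5, and 102 ± 43.7 CPM in pericytes. The endothelial level was higher than that of Cluster 7 in 11 of 15 mice and than that of pericytes in 15 of 15. The levels of the 2 astrocyte clusters and of pericytes differed by less than their spread.

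**Figure D2:**
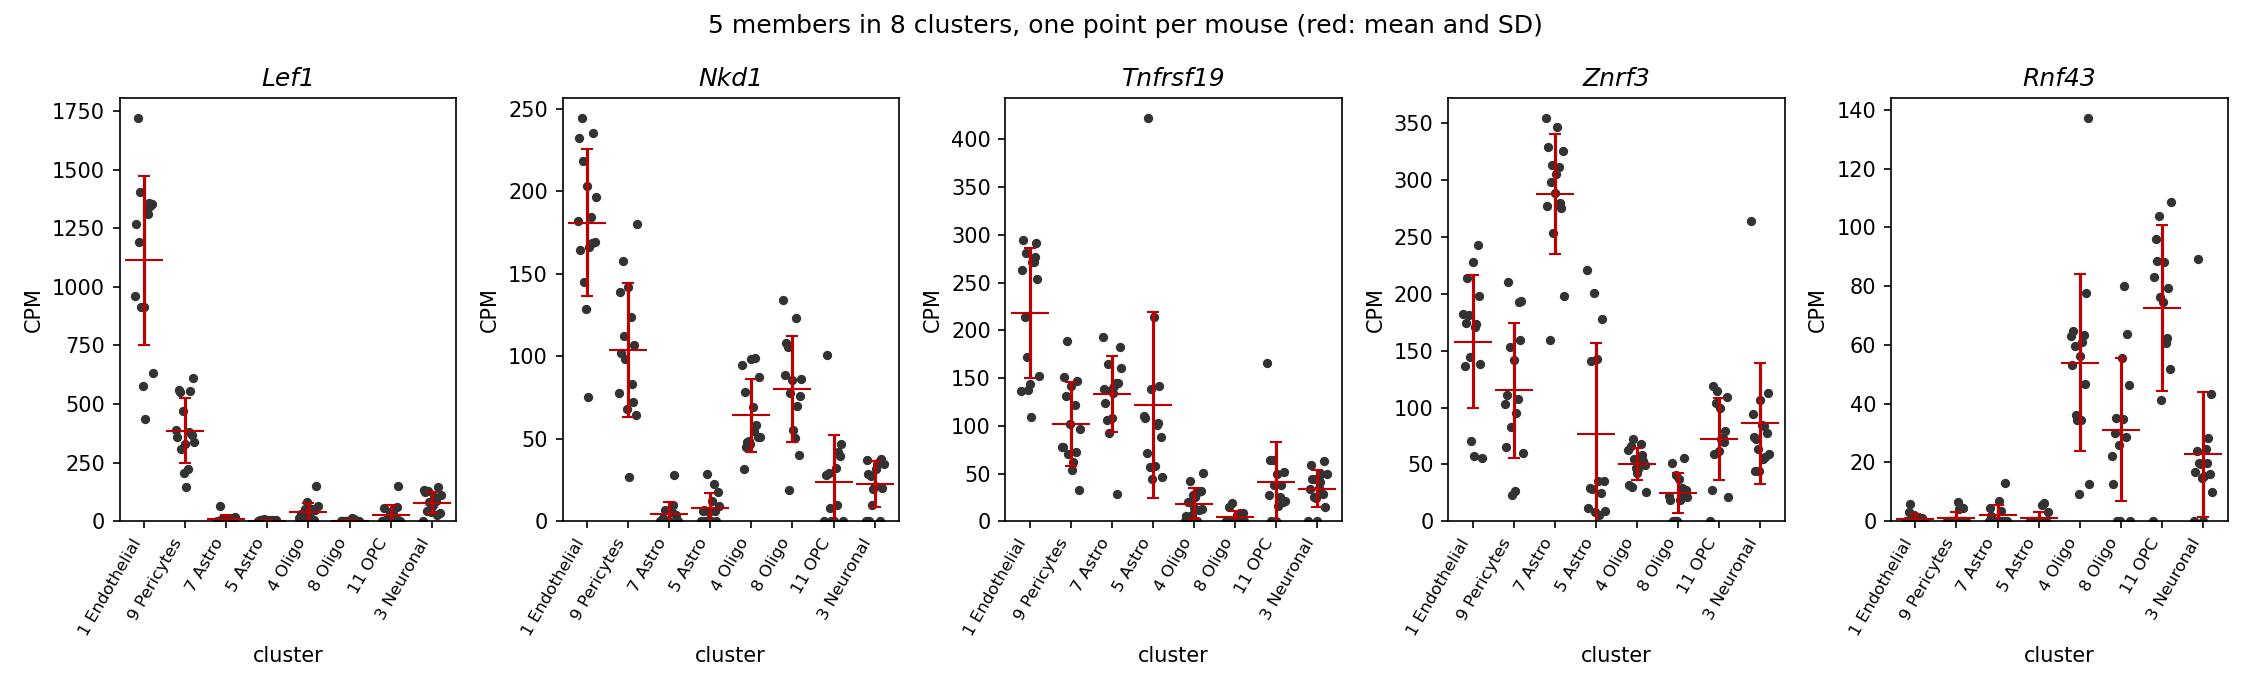
CPM of 5 members (panels) in 8 of the clusters, with a point for each mouse with at least 10 cells there and the mean and SD in red. Lef1 lies between 435 and 1719 CPM in endothelial cells, Znrf3 between 159 and 354 CPM in Cluster 7 astrocytes, and Rnf43 is at a mean of 72.5 CPM in the precursors.

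The pericyte levels have to be read beside the endothelial RNA in that cluster. All 7 pericyte markers were higher in it than in the other cells, and so were all 9 endothelial markers, with a summed level of 6399 CPM led by Flt1. For every 100 endothelial marker UMIs the pericyte cluster had 5.96 UMIs of Lef1, near the 6.64 of the endothelial cluster. The ratio was higher in pericytes for Axin2 (1.53 against 0.713), Nkd1 (1.62 against 0.994), Znrf3 (1.75 against 0.866), Apcdd1 (3.41 against 2.37), Tnfrsf19 (1.82 against 1.32) and Tcf7 (0.505 against 0.345), and lower for Notum (0.280 against 0.330). Whether endothelial RNA in the pericyte cluster accounts for its Lef1 was not tested.

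Seen cell by cell, with every cell thinned to 500 UMIs and shallower cells left out, 1005 of 3154 endothelial cells had a Lef1 UMI, or 31.9% (exact 95% interval 30.2% to 33.5%, all mice pooled). Mouse by mouse the share ran from 13.7% in cKO 1 d replicate 2 to 46.7% in cKO 7 d replicate 1. These shares cover the same 3154 cells but add up to fewer cells with a Lef1 UMI. The pooled and the per-mouse values therefore rest on different thinned counts. A UMI of any member was found in 63.0% of the 2416 cells that had never been in Cluster 2. Of the 1155 cells moved from Cluster 2, 738 reached 500 UMIs, and in these it was 10.0%. The cut left 106 of 359 endothelial cells in WT 1 d replicate 1 and 98 of 353 in WT 7 d replicate 1. It left 121 of 418 in cKO 1 d replicate 1 and 122 of 364 in cKO 7 d replicate 1. The moved cells of these 4 libraries had 20071 to 21748 CPM of endothelial markers, so the 10.0% leaves out many moved cells with endothelial RNA. In cKO 1 d replicate 2, 39.0% of the cluster's cells had been moved. The share of cells with a Lef1 UMI was 9.74% in pericytes, 2.99% in neurons and 0.110% in Cluster 6 microglia, which should lack the gene. A UMI of any member was found in 3.52% of the Cluster 6 cells. The median depths before thinning were 1656 UMIs in the endothelial and 2360 in the Cluster 6 cells. Apcdd1 had a UMI in 14.3% of endothelial cells, Tnfrsf19 in 8.62%, Nkd1 in 6.53%, Znrf3 in 5.74%, Axin2 in 3.93%, Notum in 2.57% and Tcf7 in 2.22%. Znrf3 had a UMI in 14.9% of Cluster 7 cells (12.5% to 17.5%), and Rnf43 in 2.61% of Cluster 4 and 2.15% of precursor cells, against 0.110% of Cluster 6 cells. These intervals and shares cover counting error only.

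The pattern of each member over the 17 clusters, as mean log2(CPM + 10), was compared with that of all 14613 genes with at least 200 UMIs, as a description over clusters that share mice and libraries. Most like Lef1 were Adgrl4 (an adhesion receptor; Pearson r = 0.986), Zfp366 (0.984) and Emcn (endomucin, a glycoprotein of the endothelial surface; 0.977). Most like Notum were Slc35f2 (0.988), Myct1 (0.986) and Ushbp1 (0.985), and most like Apcdd1 were Foxq1 (a forkhead transcription factor; 0.963), Arhgef5 (0.963) and Gm44937 (0.962). The nearest to Tcf7 were Gm12158 (0.964), Grrp1 (0.960) and Impdh1 (an enzyme of purine synthesis; 0.958), the nearest to Axin2 were Palmd (0.949), Bcam (0.937) and Ccn1 (a matrix protein; 0.931), and the nearest to Nkd1 were Bche (butyrylcholinesterase; 0.956), Ddc (0.925) and Gm49969 (0.924). Tnfrsf19 was most like Tspan12 (a partner of the Frizzled4 receptor; 0.948), Ccdc141 (0.947) and Fnbp1l (0.938). Znrf3 was nearest to Dido1 (0.933), Gm47087 (0.910) and Chka (choline kinase; 0.903), and Rnf43 to Bfsp2 (0.936), Dscaml1 (0.924) and Dcc (a netrin receptor; 0.922). Among the members themselves, r was 0.933 for Lef1 and Notum, 0.914 for Lef1 and Apcdd1, 0.908 for Lef1 and Tcf7, 0.340 for Lef1 and Znrf3 and -0.118 for Lef1 and Rnf43 (n = 17 clusters each).

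The 10 genes lie on 6 chromosomes of the mm10 build (GENCODE vM21 annotation), and 5 of them, Axin2, Notum, Znrf3, Tcf7 and Rnf43, share chromosome 11. Lef1 (ENSMUSG00000027985.14) spans 131110471 to 131224356 on chromosome 3, Axin2 (ENSMUSG00000000142.15) spans 108920349 to 108950783 on chromosome 11, and Znrf3 (ENSMUSG00000041961.14) spans 5276324 to 5444847 on the same chromosome. Nkd1 is on chromosome 8, Tnfrsf19 on chromosome 14 and Sp5 on chromosome 2. Genes on the same strand overlap 4 of them: Gm42449 (363 UMIs in all cells) lies over Lef1, Gm45496 (89) over Nkd1, 1110028F11Rik (9) over Rnf43 and Gm26551 (1375) over Tcf7, which itself had 916 UMIs. The deposited counts are given by symbol, so how tags in such overlaps were assigned cannot be read from them.

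RefSeq promoters (GRCm38.p6; 250 bases before to 50 after a gene's start) were at hand for 7 members, Axin2, Lef1, Nkd1, Tnfrsf19, Tcf7, Sp5 and Rnf43, in 13 entries. Letters that TCF/LEF proteins are known to bind were searched on both strands as 4 motifs that cannot match at the same place. With A as the second last letter these are CTTTGAA and the form with a final T, which is CTTTGAT, and with T as the second last letter they are CTTTGTA and the form with a final T, which is CTTTGTT. They were found in 3 of the 13 entries, of Lef1, Sp5 and Tnfrsf19, and in 5544 of all 32851 promoters of this length (16.9%). A match is a description of the letters, and no match says only that they are not in this window. The stretches around the matches are shown because these 3 genes are highest in the endothelial cluster, with the match in capitals, as read 5′ to 3′ on the gene's strand. They are chr3:131156127-131156173 (plus strand, an entry for a start inside the Lef1 gene), chr2:70474681-70474727 and chr2:70474799-70474845 (plus strand, Sp5), and chr14:61038163-61038209 (minus strand, likewise an entry for a start inside the Tnfrsf19 gene).
Lef1: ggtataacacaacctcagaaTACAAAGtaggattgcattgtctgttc
Sp5: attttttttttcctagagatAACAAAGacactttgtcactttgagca
Sp5: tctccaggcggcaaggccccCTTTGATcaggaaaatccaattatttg
Tnfrsf19: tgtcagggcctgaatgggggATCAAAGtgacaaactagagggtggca

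Of the time points after injury, 14 d had the highest endothelial means of Lef1, Axin2, Notum and Tnfrsf19, and 7 d that of Znrf3. The 1 d means were the lowest for all 5 genes, which for Znrf3 rests on cKO 1 d replicate 2. The replicate 1 mice at 1 d had a Znrf3 mean of 197 CPM, above the 160 CPM at 14 d. Levels here are CPM after normalization between mice (TMM), and differences are log2 fold changes from the edgeR quasi-likelihood fit over all 10985 genes that passed the filter, with Benjamini-Hochberg adjusted p over all of them. Of the members, 8 passed, all but Sp5 and Rnf43. No member reached an adjusted p under 0.05 in any of the comparisons that follow, so none is said to change, and with 7 residual degrees of freedom the values are given to show their size and spread.

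Axin2 was at 72.0 and 111 CPM in the WT uninjured mice and at 94.4 and 103 CPM in the cKO uninjured mice. At 14 d it was at 153 and 173 CPM in WT and at 143 and 144 CPM in cKO mice. All 4 mice at 14 d lay above all 4 uninjured mice. The 14 d minus uninjured difference was 0.70 ± 0.25 (log2, SE) with an adjusted p of 0.654, and 0.71 with the replicate number as a block. As ratios of means it was 0.83 in replicate 1 and 0.56 in replicate 2 mice.

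Tnfrsf19 showed the same separation at 14 d. The uninjured mice were at 175 and 183 CPM (WT) and 239.7 and 198 CPM (cKO), and the 14 d mice at 273 and 281 CPM (WT) and 262 and 258 CPM (cKO). No 14 d mouse overlapped an uninjured mouse, and the difference was 0.45 ± 0.21 (log2, SE; adjusted p 0.654; 0.45 with the replicate block). In replicate 1 and replicate 2 mice the log2 ratio of means was 0.37 and 0.50. At 1 d Tnfrsf19 stood on the other side, at 129 CPM in the WT mouse and 140.2 and 122 CPM in the cKO mice, all below the uninjured mice, with a 1 d minus uninjured difference of -0.60 ± 0.25 (adjusted p 0.922). That difference was -0.22 with the conditions of the cell names.

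Znrf3 separated at 7 d. It was at 147 and 94.3 CPM in WT and at 131 and 72.6 CPM in cKO uninjured mice, and at 7 d it was at 203 and 172 CPM in WT and at 235 and 194 CPM in cKO mice. Every 7 d mouse lay above every uninjured mouse, and the difference was 0.87 ± 0.33 (log2, SE; adjusted p 0.546), with 0.91 under the replicate block and log2 ratios of 0.66 and 1.13 within replicate 1 and replicate 2 mice. At 14 d the mice were at 142 and 167 CPM (WT) and 165 and 165 CPM (cKO), the lowest of them below the highest uninjured mouse, with a difference of 0.56 ± 0.33 (adjusted p 0.675) and log2 ratios of 0.14 within replicate 1 and 0.99 within replicate 2 mice. With the animal number series as a covariate the Znrf3 differences were 0.95 at 7 d (adjusted p 0.0803) and 0.94 at 14 d (adjusted p 0.0781), while the conditions taken from cell names gave 0.32 and 0.28 (adjusted p 1.00 each). Over all alternatives, mice left out included, Znrf3 ranged from 0.32 to 1.07 at 7 d and from 0.28 to 0.94 at 14 d.

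Lef1 and Notum were higher on average at 14 d but overlapped. Lef1 was at 927 and 768 CPM (WT) and 1279 and 823 CPM (cKO) in uninjured mice, and at 1320.4 and 1643 CPM (WT) and 1284 and 1243 CPM (cKO) at 14 d. The exception among the uninjured mice was cKO replicate 1, which lay between the 14 d mice. Its 46 endothelial cells are the fewest of any mouse. The difference was 0.54 ± 0.27 (log2, SE; adjusted p 0.667; 0.56 with the replicate block), 0.24 in replicate 1 and 0.86 in replicate 2 mice as ratios of means. Notum was at 46.3 and 49.9 CPM (WT) and 21.8 and 33.0 CPM (cKO) uninjured, and at 47.9 and 85.1 CPM (WT) and 69.3 and 66.2 CPM (cKO) at 14 d. WT 14 d replicate 1 lay within the uninjured range, and the difference was 0.85 ± 0.32 (adjusted p 0.654; 0.85 with the replicate block; 0.78 and 0.87 within replicates). Over all alternatives Notum at 14 d ranged from 0.49, with the conditions of the cell names, to 1.07.

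The remaining members showed smaller differences at 14 d: 0.20 ± 0.30 for Tcf7, 0.06 ± 0.27 for Apcdd1 and -0.01 ± 0.28 for Nkd1 (log2, SE; adjusted p 0.885 to 1.00). Apcdd1 was at 319 and 399 CPM (WT) and 617 and 438 CPM (cKO) in uninjured mice and at 419 and 525 CPM (WT) and 447 and 419 CPM (cKO) at 14 d. Its 14 d values lay within the uninjured range. Nkd1 was at 147 and 172 CPM (WT) and 159.8 and 255 CPM (cKO) uninjured and at 241 and 157 CPM (WT) and 160.1 and 175 CPM (cKO) at 14 d, and Tcf7 at 57.2 and 58.2 CPM and 21.8 and 74.8 CPM, then 55.02 and 75.1 CPM and 64.6 and 64.9 CPM. Both overlapped. Within replicates Nkd1 had opposite signs at 14 d, 0.39 in replicate 1 and -0.36 in replicate 2 mice, and so had Apcdd1, -0.11 and 0.17.

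**Figure D3:**
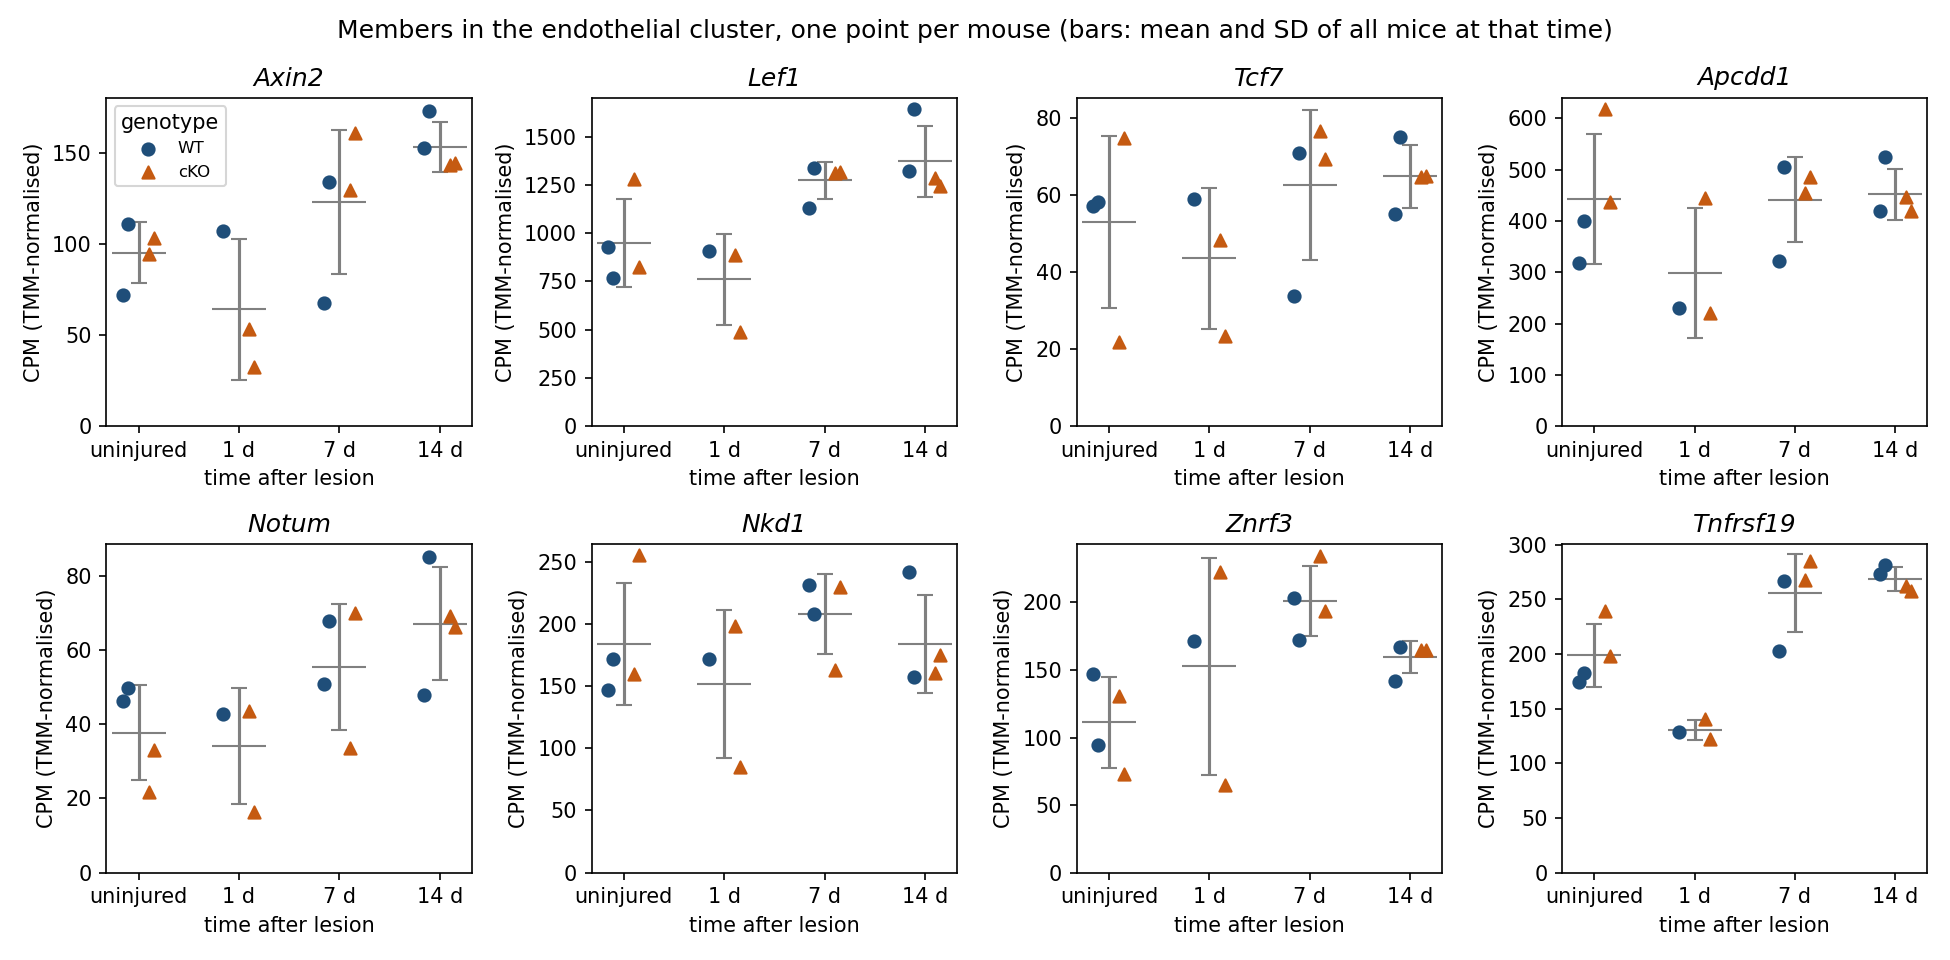
TMM-normalised CPM of the 8 tested members in the endothelial cluster (panels) by time, with a point for each mouse (circles WT, triangles cKO) and grey bars for the mean and SD of all mice at that time. Axin2 lies between 143 and 173 CPM in the 14 d mice and between 72.0 and 111 CPM in the uninjured mice.

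At 14 d, 0 of the 8 tested members and 0 of the 10985 genes (0%) passed the edgeR threshold, 3 members and 833 genes had an unadjusted p under 0.05, and DESeq2 called 0 members and 1 gene. The members' median difference was 0.49, beside -0.01 for all genes, and 7 of 8 members and 48.6% of all genes were positive. Groups without overlap between the 4 mice at 14 d and the 4 uninjured mice were found for 2 of 8 members, Axin2 and Tnfrsf19, and for 532 of all genes (4.84%). At 7 d, 0 members and 0 genes (0%) passed by edgeR, 1 member (Znrf3) and 982 genes with a p under 0.05 before adjustment, and 0 by DESeq2. The median was 0.40 beside -0.04 for all genes, with 8 of 8 members and 46.7% of all genes positive. For 1 member and 509 genes (4.63%) the mice did not overlap. The 7 d differences were 0.67 ± 0.33 for Notum, 0.43 ± 0.27 for Lef1, 0.41 ± 0.26 for Axin2 and 0.39 ± 0.21 for Tnfrsf19 (log2, SE; adjusted p 0.564 to 0.611). Over all alternatives they ranged from 0.18 to 0.89 for Notum, from 0.21 to 0.61 for Lef1, from 0.0806 to 0.64 for Axin2 and from 0.27 to 0.50 for Tnfrsf19, with the lowest Notum and Lef1 values under the conditions of the cell names. The number of genes called depended on the setting, with 0 members among them: 221 at 14 d and 78 at 7 d with the animal number series as a covariate, 140 and 148 of 27908 without a filter on low counts, and 31 and 4 without WT uninjured replicate 1.

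At 1 d the values depended on the replicate. Lef1 was at 906 CPM in the WT mouse and at 889 and 489.9 CPM in the cKO mice, and Axin2 at 107 CPM and at 53.2 and 32.4 CPM. Apcdd1 was at 230.5 CPM and at 445 and 222 CPM, and Znrf3 at 172 CPM and at 222 and 64.8 CPM. The mouse cKO 1 d replicate 2 had the lowest value of all 15 mice for 7 of the 8 members, all but Tcf7. Set beside the uninjured mice of its replicate, this mouse had a negative log2 ratio for all 8 members. In replicate 1 mice the ratio was positive for Znrf3 (0.50), Tcf7 (0.44), Notum (0.34) and Nkd1 (0.27) and negative for Tnfrsf19 (-0.62), Apcdd1 (-0.47), Lef1 (-0.30) and Axin2 (-0.05). Fitted over all 3 mice, differences from the uninjured mice were -0.65 ± 0.32 for Apcdd1, -0.52 ± 0.32 for Axin2, -0.26 ± 0.30 for Lef1 and 0.49 ± 0.38 for Znrf3 (log2, SE; adjusted p 0.922 to 0.961), and Znrf3 alone of the 8 was positive. By edgeR 0 members passed and 1 gene did (0.0091%), with 1 member and 572 genes with a p under 0.05 before adjustment and 0 members and 3 genes by DESeq2. The called gene was Lcn2, an iron-binding protein of the acute response, named after its value was seen, with a log2 difference of 6.12 ± 0.78 and an adjusted p of 0.0106. It was not called with the conditions of the cell names or without either cKO uninjured mouse, where 0 genes passed. Values that did not overlap were found for 1 member, Tnfrsf19, and for 589 genes (5.36%). The members' median was -0.32, beside -0.09 for all genes, of which 42.4% were positive. Over all alternatives, mice left out included, the 1 d difference ranged from -0.94 to -0.19 for Apcdd1 and from -0.76 to -0.29 for Axin2. It ranged from -0.50 to -0.04 for Lef1 and from -0.04 to 0.88 for Znrf3.

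With the 3 time points averaged, injury minus uninjured was 0.64 ± 0.29 for Znrf3 (adjusted p 0.697), 0.45 ± 0.30 for Notum, 0.24 ± 0.23 for Lef1, 0.20 ± 0.22 for Axin2, 0.08 ± 0.18 for Tnfrsf19 and -0.19 ± 0.22 for Apcdd1 (log2, SE). Both Tcf7 (0.00 ± 0.32) and Nkd1 (-0.03 ± 0.24) were near 0, and the 11 injured and 4 uninjured mice overlapped for all 8 members. In this comparison 0 of 8 members and 0 genes (0%) passed by edgeR, 1 member (Znrf3) and 783 genes had an unadjusted p under 0.05, and DESeq2 called 0. The median was 0.14 for the members and -0.07 for all genes. Over all alternatives, mice left out included, the injury difference ranged from 0.29 to 0.84 for Znrf3 and from 0.17 to 0.67 for Notum. It ranged from 0.09 to 0.41 for Lef1, from 0.04 to 0.35 for Axin2 and from 0.0052 to 0.19 for Tnfrsf19. For Apcdd1 it ranged from -0.30 to 0.0127. Without WT uninjured replicate 1 the number of genes called was 78 for injury and 31 for 14 d, with 0 members among them.

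Other measures of the same cluster differed between the mice as well. The 6 oligodendrocyte markers, led by Mbp and none at 0, summed to 7569 and 7391 CPM in the replicate 2 uninjured mice and 4207 CPM in cKO 1 d replicate 2, beside 993 and 1252 CPM in the replicate 1 uninjured mice and 1271 to 1979 CPM at 14 d. The 7 astrocyte markers, led by Slc1a2 and none at 0, summed to 1750.1 and 1378 CPM in the replicate 2 uninjured mice, 1486 CPM in cKO 1 d replicate 2, and 340.0 to 478 CPM at 14 d. In these 3 mice 39.0% to 39.7% of the cluster's cells had been moved, the largest shares of any mouse, and they have the 3 lowest Lef1 levels. They also have the 3 highest medians of mitochondrial UMIs in the cluster, 4.47%, 5.79% and 5.73%, against 1.86% to 2.17% at 14 d, and their median depth was 959, 1064 and 1048.5 UMIs per cell, against 2179.5 to 6841 UMIs at 14 d. The 7 pericyte markers, led by Rgs5 and none at 0, summed to 651, 752, 768 and 569.6 CPM in the uninjured mice (WT, then cKO) and to 819, 1341, 1478 and 1018 CPM at 14 d, without overlap, on the same side as Axin2 and Tnfrsf19, which the pericyte cluster also holds. The 1543 CPM of cKO 1 d replicate 2 was the highest of all 15 mice. Counting only the cells that had never been in Cluster 2, Lef1 was at 915, 743, 1359 and 776 CPM in the uninjured mice (WT, then cKO, replicates in order) and at 1301, 1766, 1378 and 1344 CPM at 14 d, and the fitted 14 d difference was 0.51. What part of the 14 d differences goes with RNA of other cells, depth or cell quality was not tested. Since the 14 d mice all belong to the high animal series, their values can be set beside the replicate 2 uninjured mice only, although both of these have another condition in their cell names (cKO uninjured and WT 7 d). The log2 ratio of means was then 0.79 for Lef1, 0.52 for Axin2, 0.70 for Notum, 0.50 for Tnfrsf19, 0.94 for Znrf3, 0.11 for Apcdd1, -0.04 for Tcf7 and -0.22 for Nkd1.

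No member passed between genotypes. Averaged over the 3 time points after injury, cKO minus WT was -0.38 ± 0.24 for Axin2, -0.29 ± 0.31 for Notum, -0.24 ± 0.25 for Nkd1, -0.20 ± 0.30 for Tcf7, -0.18 ± 0.24 for Lef1, -0.02 ± 0.29 for Znrf3, 0.05 ± 0.19 for Tnfrsf19 and 0.18 ± 0.24 for Apcdd1 (log2, SE; adjusted p 1.00 each). The 6 cKO and 5 WT mice overlapped for all 8 members. By edgeR 0 members and 0 genes (0%) passed, with 0 members and 311 genes with a p under 0.05 before adjustment and 0 by DESeq2. The median was -0.19 for the members and 0.04 for all genes. Over all alternatives, mice left out included, cKO minus WT ranged from -0.48 to -0.15 for Axin2 and from -0.54 to 0.0330 for Notum. It ranged from -0.49 to -0.03 for Nkd1 and from -0.34 to -0.03 for Lef1.

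By time point, too, no member passed between genotypes, and the direction varied. The members' median was 0.22 in uninjured mice (5 of 8 positive), -0.37 at 1 d (2 of 8, 1 WT mouse), 0.18 at 7 d (6 of 8) and -0.11 at 14 d (1 of 8). For all genes the medians, in the same order, were -0.02, 0.10, 0.01 and -0.01, with 47.9%, 55.1%, 50.7% and 49.4% positive. In uninjured mice 0 members and 0 genes (0%) passed by edgeR, 0 members and 270 genes had an unadjusted p under 0.05, and DESeq2 called 0. At 7 d it was 0 members and 0 genes (0%) by edgeR, 0 members and 94 genes unadjusted, and 0 by DESeq2, and at 14 d 0 members and 0 genes (0%), 0 members and 120 genes, and 0. At 1 d, again 0 members and 0 genes (0%) passed by edgeR, 1 member and 462 genes had an unadjusted p under 0.05, and DESeq2 called 0. That member was Axin2, at 107 CPM in the WT mouse and 53.2 and 32.4 CPM in the cKO mice, a difference of -1.41 ± 0.52 (log2, SE; adjusted p 0.981) in which the WT side is 1 shallow library. A test of whether the injury difference depends on genotype found 0 members and 0 genes (0%) by edgeR, 0 members and 353 genes unadjusted, and 0 by DESeq2.

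Outside the vessels the members were tested in the class of cells where each is found. In oligodendrocytes, 7 members passed the filter. Nkd1 was at 65.4, 89.6, 67.3 and 95.3 CPM in uninjured mice (WT, then cKO) and at 41.8, 73.9 and 111 CPM (lowest, median and highest of 11) after injury, a difference of -0.07 ± 0.27 (log2, SE; adjusted p 1.00). Rnf43 was at 34.9, 8.15, 105.8 and 11.9 CPM in the uninjured and at 27.9 to 68.9 CPM in the injured mice, with a difference of 0.21 ± 0.42 (adjusted p 0.967). Both genes overlapped between injured and uninjured mice, and the uninjured mice spread more widely for Rnf43 than the injured ones. With a mouse left out the difference ran from -0.21 to 1.38 for Rnf43 and from -0.25 to 0.0279 for Nkd1. For injury 0 members and 0 of 8624 genes (0%) passed by edgeR, 1 member (Apcdd1, difference -1.63 ± 0.66) and 553 genes with a p under 0.05 before adjustment, and 0 members and 2 genes by DESeq2. For genotype it was 0 members and 0 genes (0%), 0 members and 189 genes unadjusted, and 0 by DESeq2.

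In the precursors Rnf43 was at 97.6, 48.3 and 132 CPM in the 3 uninjured mice with enough cells, at 0 CPM in the WT 1 d mouse and at 62.5 to 127 CPM in the other 10 injured mice. The WT 1 d value is a count of 0, so no fold change is given. Of 5 members and 5417 genes, 0 members and 0 genes (0%) passed for injury by edgeR, 0 members and 307 genes unadjusted, and 0 members and 2 genes by DESeq2. For genotype 0 members and 0 genes (0%) passed, with 0 members and 233 genes unadjusted and 0 by DESeq2.

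Astrocytes, the cells in which Ryk was targeted, held Znrf3 and Tnfrsf19. In Cluster 7, Znrf3 was at 314, 254, 326 and 198 CPM in the uninjured mice and at 277, 329, 347 and 311 CPM at 14 d (WT, then cKO), and the lowest mouse of all was WT 7 d replicate 1 at 159 CPM from 6 UMIs. No group stood apart there. The 3 clusters labelled astrocytes were then summed, among them Cluster 2 with its oligodendrocyte markers. Mean Znrf3 was 7.04, 76.5 and 288 CPM in Clusters 2, 5 and 7, so the sum also depends on each mouse's mix of clusters. What part of a difference goes with that mix was not tested. In the sum Znrf3 was at 119 to 231 CPM in injured and 87.6 to 286 CPM in uninjured mice. Tnfrsf19 was at 62.3 to 185 and 94.2 to 164 CPM, and both genes overlapped. The injury difference was 0.05 ± 0.36 for Znrf3 and 0.06 ± 0.29 for Tnfrsf19 (log2, SE; adjusted p 1.00 and 0.998), and cKO minus WT was -0.08 ± 0.38 and -0.32 ± 0.32 (adjusted p 1.00 each). Of 5 members and 11769 genes, 0 members and 0 genes (0%) passed for injury by edgeR, 0 members and 698 genes unadjusted, and 0 by DESeq2. For genotype 0 members and 0 genes (0%) passed, 0 members and 265 genes unadjusted, and 0 members and 1 gene by DESeq2.

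Pericytes had Lef1 at 529, 255, 583 and 421 CPM in uninjured mice (WT, then cKO) and at 182, 403 and 618 CPM (lowest, median and highest of 11) after injury, a difference of -0.22 ± 0.30 (log2, SE; adjusted p 0.994). Axin2 was at 66.2, 113, 92.1 and 286 CPM in uninjured and at 0, 88.2 and 137 CPM in injured mice, with its 3 lowest values in the 3 mice at 1 d: 0 CPM in WT and 23.5 and 33.1 CPM in cKO. Injured and uninjured mice overlapped for both genes. Of 7 members and 6876 genes, 0 members and 0 genes (0%) passed for injury by edgeR, 1 member (Axin2) and 278 genes unadjusted, and 0 by DESeq2. For genotype 0 members and 0 genes (0%) passed, 0 members and 244 genes unadjusted, and 0 by DESeq2.

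The neuron and microglia clusters held Znrf3 and the neuron cluster also Lef1. That cluster had 861 CPM of endothelial markers too. It had 11.9 Lef1 UMIs for every 100 endothelial marker UMIs, beside 6.64 in the endothelial cluster. Whether endothelial RNA accounts for part of its Lef1 was not tested. Of 7 members and 10238 genes in neurons, 0 members and 1 gene (0.00977%) passed for injury by edgeR, 0 members and 913 genes unadjusted, and 0 by DESeq2. The gene was Acta1, a skeletal muscle actin, named after its value was seen, with a log2 difference of -4.82 ± 0.83 (adjusted p 0.0230). For genotype 0 members and 0 genes (0%) passed, 0 members and 382 genes unadjusted, and 0 by DESeq2. The fitted differences of all neuronal genes had a median of -0.82 for injury and 2.01 for genotype, and those of the members of -0.94 and 1.83. In microglia 1 member, Znrf3, passed the filter, at 48.1 ± 22.8 CPM in 3 uninjured and 66.7 ± 24.3 CPM in 11 injured mice. Of 9268 genes, 12 passed for injury by edgeR (0.129%) and 71 by DESeq2, with 946 at an unadjusted p under 0.05, and 0 members by edgeR, unadjusted or by DESeq2, which gave Znrf3 no adjusted p. The genotype comparison there gave 0 members and 0 genes (0%) by edgeR, 0 members and 346 genes unadjusted, and 0 by DESeq2.

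Many genes that relay the signal were present in the endothelial cluster, while Lgr6 and Dact2, with 9 UMIs each, were almost absent. Of a list of 30 such genes, 24 were tested there, and the 3 with most UMIs were Ctnnb1, which encodes beta-catenin (576 ± 90.0 CPM, SD, n = 15), Gsk3b, the kinase that marks it for degradation (361 ± 83.2 CPM), and Fermt2, an adaptor of integrin adhesions (380.0 ± 65.4 CPM). Injury differences were -0.29 ± 0.18, 0.06 ± 0.21 and 0.14 ± 0.19 (log2, SE; adjusted p 0.730, 0.981 and 0.885). None of the 24 passed by edgeR for injury, 1 had an unadjusted p under 0.05, and DESeq2 called 0 genes of any kind. The list's median was -0.04, beside -0.07 for all genes. For genotype 0 of 24 passed, 0 unadjusted, with a median of -0.04 beside 0.04.

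A list of 20 other genes described as Wnt targets, 1 of which, Lgr5, is also on the relay list, was looked at in the same way. Of its 16 genes with at least 200 UMIs, 3 were highest in the endothelial cluster (18.8%), and of 29 relay genes 5 were (17.2%). Those 3, also the ones with most UMIs there, are Tcf4, a transcription factor of many tissues (1379 ± 371 CPM), Jun, an early response gene (901 ± 325 CPM), and Prickle1, of the planar polarity pathway (251 ± 74.8 CPM). Their injury differences were 0.15 ± 0.25, 0.02 ± 0.30 and 0.09 ± 0.21 (log2, SE; adjusted p 0.911, 1.00 and 0.948). For injury 0 of 10 tested genes passed by edgeR, 0 unadjusted, with a median of -0.15, and for genotype 0 of 10, 0 unadjusted, with a median of -0.10.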

How the data were processed

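Counts are the raw UMIs that the authors deposited per gene and cell, made with Cell Ranger on mm10 (labels: GRCm38, mm10), Seurat and R 4.1.2; the authors kept cells with under 25% mitochondrial UMIs and over 200 genes. The percent of mitochondrial UMIs and the counts per cell are given per the file headers. For each mouse the UMIs of a class with at least 10 cells were added up; CPM divides by the summed UMIs. Tests used edgeR 4.0.16 (TMM, filterByExpr, group means of 8 conditions, quasi-likelihood F test) in R 4.3.3 with limma 3.58.1, adjusted by Benjamini-Hochberg over all genes fitted, threshold 0.05; DESeq2 1.42.0 was an alternative. The fit was tested on simulated data, but no result given here rests on that test. Other work used Python 3.11.15, numpy 2.4.6, pandas 2.3.3, scipy 1.17.1 and matplotlib 3.10.9. Cells were thinned to 500 UMIs without replacement; intervals are Clopper-Pearson. Depth per mouse was 536263 to 9008729 UMIs. WT 1 d replicate 2 (1 cell) was left out.

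The members and lists were chosen with earlier results of these data known. Named genes are all members, the 3 genes most like each member with at least 200 UMIs, and of the lists of signal relay genes and other Wnt targets every called gene or else the 3 with most UMIs in endothelial cells. Alternatives were RLE size factors, DESeq2, no filter on low counts, at least 30 cells, the replicate number as a block, the animal number series as a covariate, the conditions of the cell names, clusters before cells left Cluster 2, mean of per-cell CPM, other thinning, and each mouse left out in turn. The RefSeq promoter table at hand lacks Notum, Apcdd1 and Znrf3. Leaving out shared barcodes, or the 4 libraries that share most of them, was chosen after seeing the data.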

Additional observations from a re-analysis of the deposited data

Results flagged for a closer look

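In the endothelial cluster, 24 sets of 4 mice (8 members, each uninjured, at 7 d and at 14 d) were searched for a mouse far from the other 3, and 3 sets held such a mouse; chance alone gives about 1 in 20. Lef1 at 7 d was at 1129 CPM in WT 7 d replicate 1, below the other 3 mice at 1312 to 1337 CPM. Tcf7 at 7 d was lowest in the same mouse, at 33.9 CPM, below 69.3 to 76.6 CPM. That value rests on 6 UMIs in 353 cells of 1 of the 4 shallowest libraries, beside 16 to 118 UMIs in the other 3 mice. Znrf3 at 14 d was at 142 CPM in WT 14 d replicate 1, below 165 to 167 CPM in the others. The difference between the injury responses of the genotypes was tested for all 8 members, and 0 passed.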

How the results depend on the processing

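The number of members called was 0 in all 22 comparisons and stayed 0 in all 496 fits under other settings, 307 of them with a mouse left out. The lowest adjusted p of any member in the endothelial fits was 0.0781 (Znrf3, 14 d, animal number series as a covariate), in a range of 0.0781 to 1.00. Genes of all kinds called in the endothelial cluster did depend on the setting. Without a filter on low counts (27908 genes) they were 158 for injury, 80 for 1 d, 148 for 7 d, 140 for 14 d, 35 for genotype, 10 for genotype in uninjured mice, 57 for genotype at 1 d, 10 at 7 d and 14 at 14 d, and 22 for the interaction. With the animal number series as a covariate they were 50 for injury, 4 for 1 d, 78 for 7 d, 221 for 14 d and 1 for genotype at 14 d; with DESeq2, 3 for 1 d and 1 for 14 d. With the conditions of the cell names they were 0 for 1 d, so the gene called there is lost. With mice left out they ranged from 0 to 78 for injury, 0 to 3 for 1 d, 0 to 4 for 7 d, 0 to 31 for 14 d, 0 to 1 for genotype at 7 d and 0 to 2 for the interaction. No cause was tested.

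The count of members highest in endothelial cells was 5 to 8 with a replicate left out. The share of endothelial cells with a Lef1 UMI was 57.1% at 1000 UMIs and 53.0% without thinning, over other sets of cells (1978 and 4201, against 3154 at 500 UMIs).

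Signs turned for some uncalled differences. Endothelial, with the conditions of the cell names: Nkd1 injury 0.28, 1 d 0.0393 and 14 d 0.32, Apcdd1 injury 0.0127, Notum genotype 0.0330, Tnfrsf19 genotype -0.0787, Znrf3 genotype 0.15; in other classes Nkd1 0.0135 and Rnf43 -0.0232 (oligodendrocytes), Axin2 0.15 (pericytes, where the titles' conditions leave WT 1 d at 0 CPM, so no fold is given for them) and Znrf3 -0.39 (astrocytes), all injury. With the animal number series: Tcf7 injury -0.0340 and Znrf3 genotype 0.0563. Without shared barcodes: Tcf7 injury -0.0219 and astrocyte Tnfrsf19 injury -0.00227. Before cells left Cluster 2: Tcf7 injury -0.0481. Without a filter: Znrf3 genotype 0.00181, Nkd1 14 d 0.0611 and oligodendrocyte Nkd1 injury 0.0213. With the replicate block: Znrf3 genotype 0.0194. Under the conditions of the cell names the endothelial differences that kept their sign were smaller for 7 of 7 members at 1 d, 5 of 8 at 7 d and 3 of 7 at 14 d. The cause was not tested.

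With a mouse left out, the ranges that crossed 0 were, for injury, -0.16 to 0.17 (Nkd1) and -0.20 to 0.68 (Tcf7); for genotype, -0.00586 to 0.35 (Apcdd1), -0.00682 to 0.13 (Tnfrsf19), -0.37 to 0.24 (Znrf3) and -0.36 to 0.0659 (Tcf7); for 1 d, -0.61 to 0.0324 (Nkd1), -0.51 to 0.23 (Notum), -0.0358 to 0.88 (Znrf3) and -0.62 to 0.30 (Tcf7); for 7 d, -0.15 to 0.17 (Apcdd1) and -0.20 to 0.87 (Tcf7); for 14 d, -0.14 to 0.19 (Nkd1), -0.0558 to 0.19 (Apcdd1) and -0.00411 to 0.88 (Tcf7). Injury in other classes gave -0.25 to 0.0279 (oligodendrocyte Nkd1), -0.21 to 1.38 (oligodendrocyte Rnf43), -0.39 to 0.0719 (pericyte Lef1), -0.25 to 0.62 (astrocyte Znrf3) and -0.12 to 0.22 (astrocyte Tnfrsf19). Leaving out WT 1 d replicate 1 empties that condition, so its comparisons were not run, and a condition left with 1 mouse is assumed to vary like the others. With 1 or 2 mice per condition and 11 to 24 UMIs of Rnf43 and Sp5 in endothelial cells, differences in these 2 genes were not detectable there.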
